A study of Mus musculus with 18 samples.

Results

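Cytoplasmic ribosomal protein genes were followed in F9 cells, a mouse embryonal carcinoma line, treated with retinoids. A member was any gene whose symbol is Rpl, Rps, Rplp or Rpsp followed by a number and, at most, one of the endings a, l, x, al or l1. The symbol had to come from a probe set (the group of array probes summed into 1 value) that the platform annotation pairs with 1 symbol, and the brightest such probe set stood for the gene. The pattern gave 59 of 19938 genes measured, 38 of the large 60S subunit and 21 of the small 40S subunit. It matched 86 symbols in RefSeq, so 27 were not measured this way, and 18 of these had probe sets that list several symbols. Rpl11, Rpl39, Rpl22l1, Rpl36al and Rps27 are among the 27 and are not analysed here.

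Total RNA was measured on 18 whole-transcript arrays. F9 cells received ethanol, the vehicle, for 48 h (2 arrays), or all-trans retinoic acid (ATRA), BMS961, BMS753 or BMS641 for 2, 6, 24 or 48 h (1 array for each retinoid and time). The BMS compounds are described by the submitters as specific for 1 retinoic acid receptor (RAR) each, BMS961 for RAR gamma, BMS753 for RAR alpha and BMS641 for RAR beta, while ATRA binds all of them. The dose was 1 µM, except for BMS961 with 0.1 µM. All groups were the same line, with no genetic change stated. Whether the vehicle arrays are separate cultures is not in the labels, so the spread between them may be only technical. The p-values against vehicle rest on that spread and on departures of the retinoids from common time effects. Those between retinoids rest on such departures alone, which can hold differences in response as well as noise. No vehicle array exists here for 2, 6 or 24 h.

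A ribosome holds a single copy of nearly every ribosomal protein, and the genes for them, scattered over the genome, are transcribed at high and closely matched rates. Their mRNAs begin with a C followed by a run of pyrimidines, the terminal oligopyrimidine tract through which growth signals control their translation. Ribosomal RNA comes from RNA polymerase I in the nucleolus, where assembly factors join it with the imported proteins. F9 cells stop dividing rapidly and become endoderm-like when retinoids differentiate them, and growing embryonal cells are known for intense ribosome production.

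RefSeq promoters (250 bases before to 50 after the start, GRCm38.p6) were at hand for 47 of the 59 members and for 27025 genes in all. The palindrome TCTCGCGAGA, which reads the same on both strands, was present in 6 members (12.8%) against 0.525% of all promoters. All 6 are shown. Of them Rps19, Rps28 and Rpl26 were called higher and Rpl12 lower with ATRA than with BMS641, where 15 of all 59 members were called. As given below, 0 of the 15 were called once the likeness of the ATRA arrays to vehicle 1 entered the fit. A link between the palindrome and these differences was not tested. Capitals mark the palindrome.
Rps19, chr7:24884559-24884611, plus strand: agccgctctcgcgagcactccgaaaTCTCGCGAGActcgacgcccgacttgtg
Rps28, chr17:33824543-33824588, minus strand: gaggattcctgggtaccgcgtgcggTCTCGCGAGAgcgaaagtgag
Rpl26, chr11:68901515-68901574, plus strand: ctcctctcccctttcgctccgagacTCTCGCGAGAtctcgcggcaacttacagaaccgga
Rpl12, chr2:32961633-32961692, plus strand: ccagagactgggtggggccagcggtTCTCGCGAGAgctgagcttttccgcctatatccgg
Rpl10a, chr17:28328509-28328568, plus strand: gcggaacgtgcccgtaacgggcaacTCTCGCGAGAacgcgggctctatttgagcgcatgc
Rps6, chr4:86857384-86857443, minus strand: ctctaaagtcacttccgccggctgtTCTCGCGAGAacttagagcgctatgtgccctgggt

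A start with C and at least 4 pyrimidines after it, counted at the annotated first transcribed base, was present in 10 of the 47 (21.3%) and in 3.01% of all promoters. Rps10, which was higher with ATRA, Rplp2 of the stalk and Rps6 are shown. Capitals mark the uninterrupted pyrimidine run from the annotated start onward, and pyrimidines just before that start are in small letters.
Rps10, chr17:27635225-27635259, minus strand: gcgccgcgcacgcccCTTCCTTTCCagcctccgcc
Rplp2, chr7:141447636-141447670, plus strand: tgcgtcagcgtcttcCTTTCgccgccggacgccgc
Rps6, chr4:86857348-86857382, minus strand: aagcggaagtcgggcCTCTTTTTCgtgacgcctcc
On either strand, the ETS core CCGGAAG was in 17 members (36.2%, all promoters 9.93%), and the E-box CACGTG, the class that Myc proteins bind, in 5 (10.6%, all 8.09%). AGGTCA, the hexamer that nuclear receptors bind, was in 6 (12.8%, all 18.1%) and TATAAA in 6 (12.8%, all 15.7%). These matches are letters in a window and no measure of binding, and an annotated start that is off by a base hides a pyrimidine start.

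Most members were bright: their mean log2 levels over the 18 arrays lay between 4.36 and 13.33, and 40 of 59 were above 11, where the median gene was at 5.95. They also varied little. From the lowest to the highest of the 18 arrays the median member spanned 0.44 on the log2 scale, against 0.68 over all genes, and 53 of 59 members spanned less than 1, as did 78.4% of all genes and 67.5% of the genes above the median level.

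The embryonal carcinoma markers Pou5f1 (log2 level 11.80 to 12.21), Sox2 (10.74 to 11.91) and Nanog (11.08 to 12.07) were high on every array. Other stem cell markers were lower late with ATRA and BMS961: Tdgf1 was at 11.98 and 11.82 with vehicle and at 10.21 and 10.22 at 48 h of these agents, and Utf1 at 10.98 and 10.86 and at 9.98 and 10.02. Zfp42 ranged from 9.75 to 11.59, Lin28a from 7.75 to 9.44 and Sall4 from 10.13 to 10.79, and the part of these shifts in the results below was not tested. Of the fibroblast markers, Postn, Lum and Dcn stayed between 2.91 and 3.96 and Col1a1, Col1a2, Col3a1 and Thy1 between 5.37 and 6.63. Among blood markers Ptprc and Cd52 were at 4.01 to 4.67, while Laptm5 was at 7.84 to 9.72. The vehicle arrays differed from each other by 1.5-fold or more in 1406 genes upward and 1456 downward. Counted by such genes, 3 of 4 ATRA arrays (6, 24 and 48 h) were nearer to vehicle 1 and 11 of 12 BMS arrays nearer to vehicle 2, all except BMS961 at 48 h. For ATRA at 24 h the counts were 751 genes from vehicle 1 and 3844 from vehicle 2, and for BMS641 at 24 h 2283 and 257. No label names this array set (vehicle 1 with the ATRA arrays), which rests on the likeness of arrays in these same data. It takes in ATRA at 2 h, which was slightly nearer to vehicle 2 (1779 genes) than to vehicle 1 (1867). An effect of the set and of ATRA cannot be told apart without the vehicle arrays. Values with the set as a block therefore stand beside the results they change. The block takes the set effect only from vehicle 1 against vehicle 2, 1 array each. For ATRA against vehicle it is the same fit as leaving vehicle 2 out. Against BMS641 it subtracts the difference between the vehicle arrays, with the noise of these 2 arrays. Lost calls and turned signs are thus no separate check.

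The members lay slightly lower in retinoid-treated than in vehicle-treated cells. Against vehicle 1 the median over the 59 members was below 0 on 16 of 16 retinoid arrays, and against vehicle 2 on 14 of 16. In ATRA-treated cells these medians ran from -0.15 to 0.02, nearest to 0 at 48 h (-0.04 and 0.02 against vehicle 1 and 2). BMS961 gave -0.06 and 0.0045 at 2 h, -0.11 and -0.06 at 6 h, -0.06 and -0.02 at 24 h, and -0.20 and -0.15 at 48 h, its lowest point. With BMS753 they were between -0.23 and -0.11, and with BMS641 between -0.20 and -0.15, at every time and against either array. Medians over all genes stayed between -0.07 and 0.08 in the same comparisons. RNA came from whole cultures, where fewer cells of a type and less RNA per cell cannot be told apart, and the vehicle arrays, shared by all these comparisons, are those of 48 h only.

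The vehicle arrays themselves differed by a member median of 0.04, vehicle 1 being higher in 37 and lower in 22 members. Single members differed far more between them, from -0.81 (Rps27l, 9.69 on vehicle 1 and 10.50 on vehicle 2) to 0.65 (Rps19, 10.52 and 9.87). Rpl37a (-0.57), Rpl14 (-0.41) and Rplp1 (0.41) also stood apart between the vehicle arrays, by more than most of the retinoid differences given below. Centring each array on its median over all genes turned the vehicle median to -0.14.

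**Figure D1:**
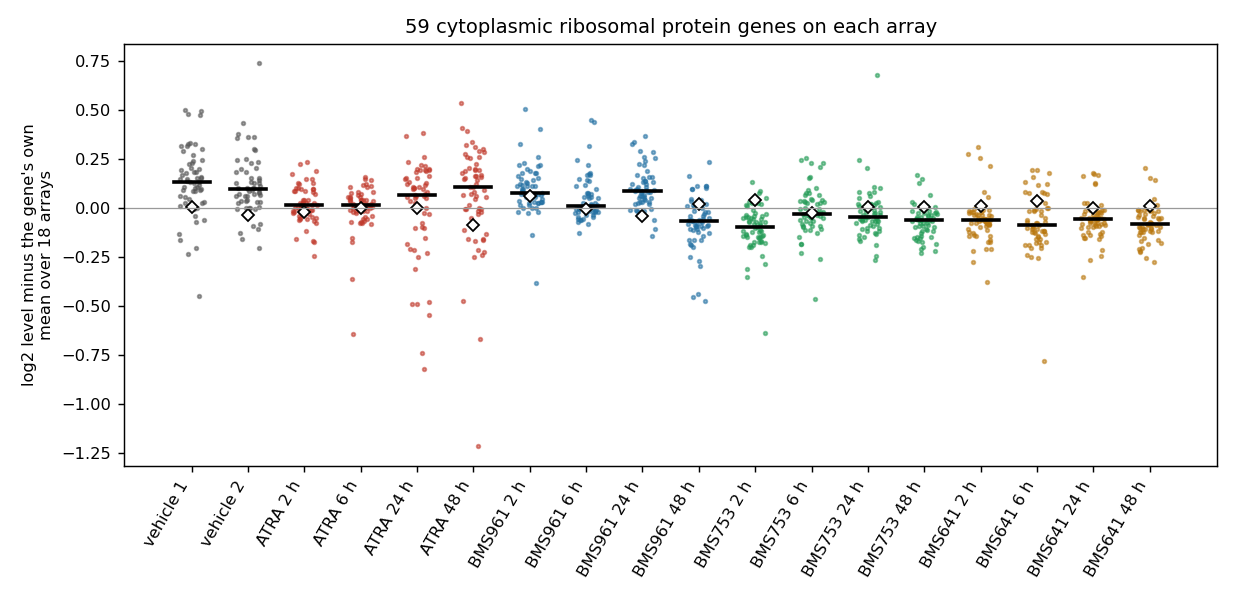
Log2 level of each of the 59 ribosomal protein genes minus that gene's own mean over the 18 arrays (vertical axis), on each array (horizontal axis). Points are genes, black bars the median over the 59, and open diamonds the median over all 19938 genes; the bars are highest on the vehicle arrays (0.13 and 0.09) and ATRA at 48 h (0.10) and below 0 on all 8 BMS753 and BMS641 arrays.

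Counted gene by gene, 38 of the 59 members (64.4%) had all 4 BMS641 arrays below both vehicle arrays, which was so for 5.5% of all genes. For BMS753 it was 33 members (55.9%, all genes 5%). Rps15a, a 40S protein, was at 8.74 and 8.56 with vehicle, at 8.32, 8.14, 7.91 and 7.99 with BMS641 at 2, 6, 24 and 48 h, and at 7.95, 8.15, 7.99 and 8.10 with BMS753. Both BMS series thus lay under the vehicle pair without overlap. Rps28, another 40S protein, was at 11.90 and 11.55 with vehicle and between 11.14 and 11.24 on the 8 arrays of these agents. Rps12 was at 12.70 and 12.61 with vehicle and at 12.13 to 12.26 on the same 8 arrays, again with no overlap.

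For ATRA, 11 members (18.6%) had all 4 arrays below both vehicle arrays, against 6.59% of all genes, and for BMS961 9 members (15.3%), against 3.98%. These counts depended on the vehicle array: with vehicle 2 alone they were 23 and 20, with vehicle 1 alone 24 and 32, and with centred arrays 30 and 17. No member had all 4 ATRA, BMS753 or BMS641 arrays above both vehicle arrays (all genes 5.8%, 8.13% and 10.6%). The 1 such member with BMS961 (all genes 7.05%) was Rpl10, a 60S protein at the subunit interface, at 13.29 and 13.33 with vehicle and 13.35 to 13.41 with BMS961.

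**Figure D2:**
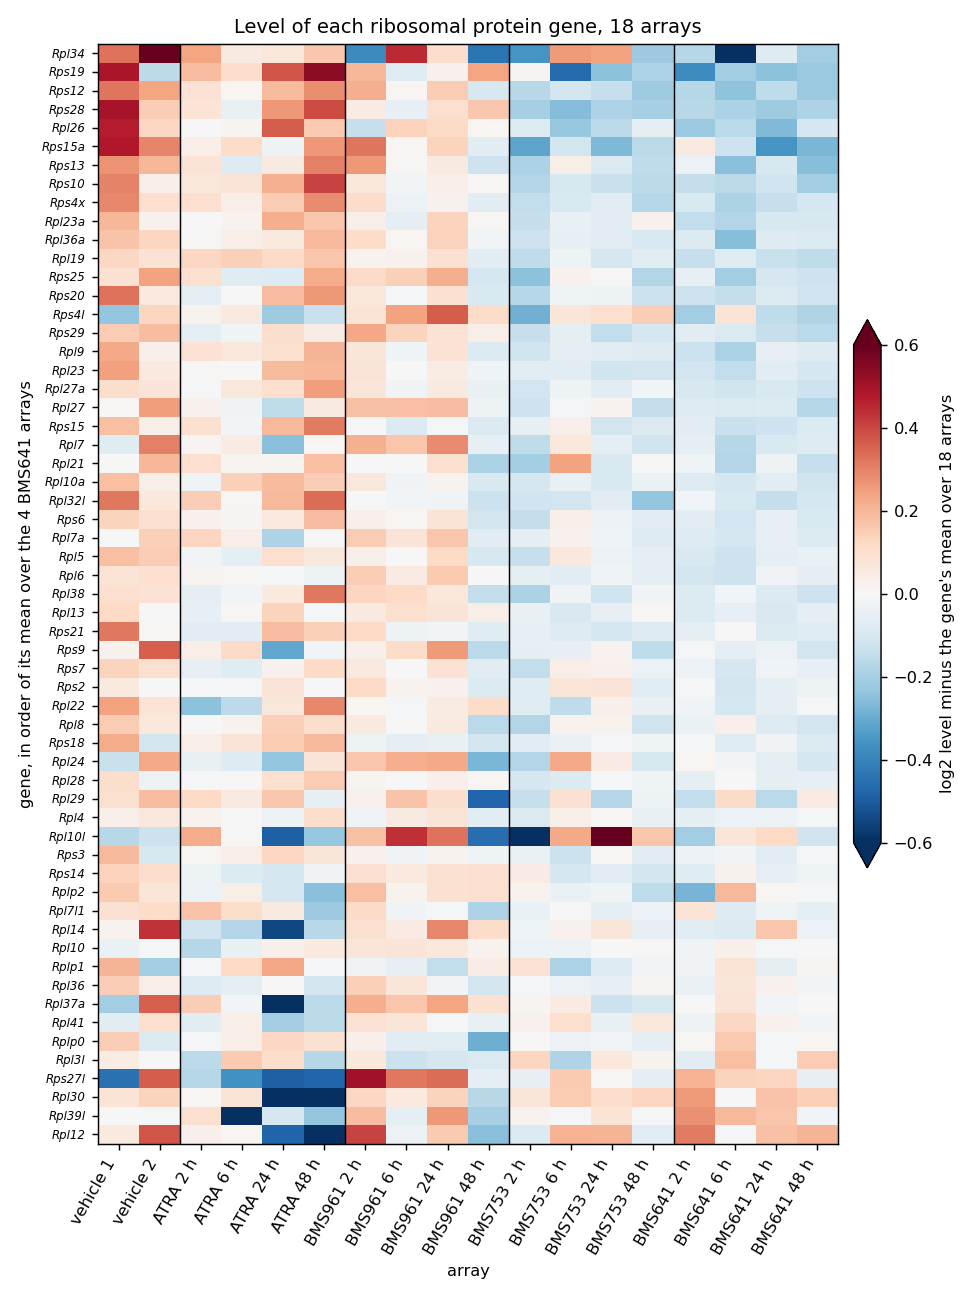
Each row is 1 of the 59 genes and each column 1 array; colour gives the log2 level minus the gene's mean over the 18 arrays, from blue (lower) to red (higher), with colours saturating at 0.6 either way, and black lines separate the agents. Most rows are red on the vehicle arrays and blue on the BMS753 and BMS641 arrays, while Rpl12 and Rpl30 near the bottom are blue with ATRA at 24 and 48 h. Rows are ordered by the mean over the BMS641 arrays.

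Tests against vehicle used a linear model in limma over all 19938 genes, with 24 and 48 h averaged as late and 2 and 6 h as early, and an adjusted p under 0.05 (Benjamini-Hochberg over all genes) as the call. In ATRA-treated cells 2 members fell late, Rpl12 and Rpl30, or 3.39% of members against 1.4% of all genes, and none rose (all genes 3.31%). Rpl12, which sits at the base of the ribosomal stalk where elongation factors bind, was at 8.38 and 8.70 with vehicle and at 8.36, 8.34, 7.85 and 7.11 with ATRA at 2, 6, 24 and 48 h. The last 2 values were the lowest of all 18 arrays. Its late change was -1.07 ± 0.20 (SE, log2; limma adjusted p = 0.0155). Rpl30, a 60S protein, was at 9.17 and 9.22 with vehicle and at 9.10, 9.17, 8.27 and 8.42 with ATRA, so the late arrays lay below the 16 others. It changed by -0.85 ± 0.13 (limma adjusted p = 0.00653).

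With BMS961 at 48 h Rpl12 (8.08) and Rpl30 (8.92) were also under both vehicle arrays, though not at 24 h (8.48 and 9.22); the late changes were not called. Rpl14, a 60S protein, followed in size in ATRA-treated cells, with -0.58 ± 0.16 (limma adjusted p = 0.0659). It was at 9.56 and 9.97 with vehicle and at 9.41, 9.36, 8.99 and 9.37 with ATRA, below both vehicle arrays each time. Rps19 (0.29), Rps15 (0.14) and Rps10 (0.14) had the highest late estimates and were not called. Without vehicle 1, 6 members were called, where 18% of all genes were: Rpl12, Rpl30, Rps27l, Rpl37a and Rpl14 lower and Rps19 higher. Without vehicle 2, or with the array set as a block, only Rpl30 was (-0.83, limma adjusted p = 0.0444), while Rpl12 was at -0.91 (adjusted p = 0.133).

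In the other 7 comparisons with vehicle limma called no member. At an unadjusted p under 0.05 there were 2 members for BMS961 (3.39%, all genes 11.6%), 12 for BMS753 (20.3%, all genes 8.73%) and 13 for BMS641 (22%, all genes 4.59%) late. Early there were 3 for ATRA (5.08%, all genes 10%), 1 for BMS961 (1.69%, all genes 7.03%), 10 for BMS753 (16.9%, all genes 5.59%) and 16 for BMS641 (27.1%, all genes 7.53%). Late ATRA had 5 (8.47%, all genes 19.8%). Calls over all genes were as scarce in these comparisons, at 0.818% higher and 0.446% lower for late BMS961, 0.171% and 0.015% for late BMS753, 0.853% and 0.396% for early ATRA, 0.0351% and 0.00502% for early BMS961, and 0 for the remaining 3. Late BMS641 estimates were lowest for Rps15a (-0.70 ± 0.15), Rpl34 (-0.68 ± 0.29) and Rps28 (-0.52 ± 0.12), and late BMS753 estimates for Rps15a (-0.60), Rpl34 (-0.52) and Rps28 (-0.52). Early BMS641 estimates were lowest for Rpl34 (-1.01), Rps28 (-0.50) and Rpl26 (-0.49), none past the threshold. Against vehicle 1 alone limma called some members for late BMS753, late BMS641 and the early arrays of all BMS agents. Against vehicle 2 alone it called no member in these comparisons. Such fits rest on 1 vehicle array, and the calls depended on which.

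**Figure D3:**
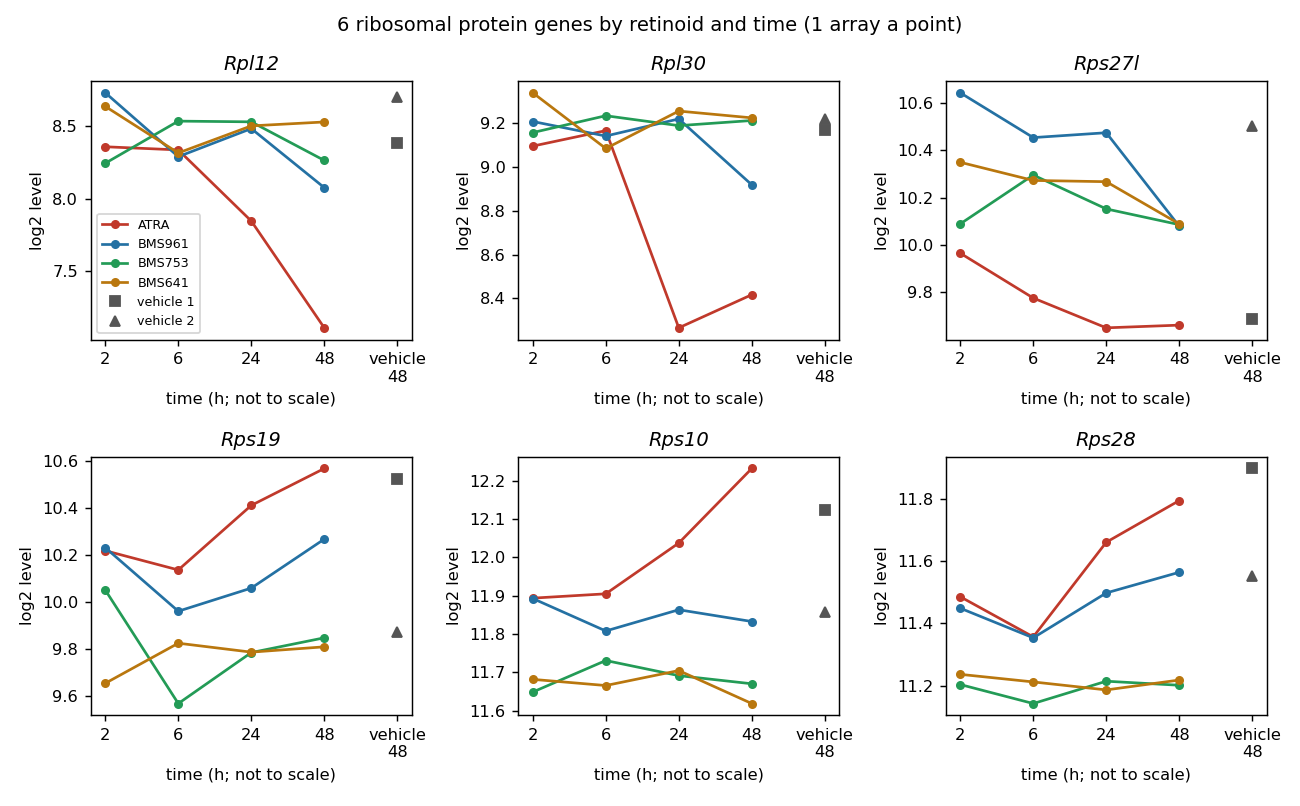
Log2 level (vertical axis) of 6 ribosomal protein genes against time in h (horizontal axis, not to scale), 1 array a point, coloured lines for the retinoids, and a grey square and triangle for vehicle 1 and vehicle 2 at 48 h. Rpl12 and Rpl30 drop with ATRA at 24 and 48 h, to 7.11 and 8.42 at 48 h; Rps27l is lowest with ATRA and on vehicle 1; Rps19, Rps10 and Rps28 are higher with ATRA than with BMS641 at each time.

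ATRA and BMS641 were compared over their 4 matched times at the same 1 µM dose, with time as a block in limma on the 16 retinoid arrays, which leaves the vehicle arrays out. Of 59 members 11 were higher with ATRA (18.6%, all genes 8.09%) and 4 lower (6.78%, all genes 11.4%). The median over the members was 0.10, with 45 above 0 and 14 below, where the median over all genes was -0.04. By time the member median was 0.07 at 2 h, 0.08 at 6 h, 0.14 at 24 h and 0.20 at 48 h.

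The higher members were Rps19, Rps28, Rps10, Rps12, Rps4x and Rps15 of the 40S subunit and Rpl26, Rpl19, Rpl32l, Rpl23a and Rpl9 of the 60S subunit. Rps19, the gene most often mutated in Diamond-Blackfan anaemia, was at 10.22, 10.13, 10.41 and 10.57 with ATRA and at 9.65, 9.82, 9.78 and 9.81 with BMS641 at 2, 6, 24 and 48 h. Every ATRA array was above every BMS641 array, and the fitted difference was 0.56 ± 0.10 (1.48-fold, limma adjusted p = 0.00221). The vehicle arrays, at 10.52 and 9.87, spanned almost the same range.

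Rps28 was at 11.49, 11.36, 11.66 and 11.79 with ATRA against 11.24, 11.21, 11.19 and 11.22 with BMS641, a difference of 0.36 ± 0.08 (limma adjusted p = 0.00664). Rps10, also a Diamond-Blackfan anaemia gene, was at 11.89, 11.90, 12.04 and 12.23 against 11.68, 11.67, 11.70 and 11.62, a difference of 0.35 ± 0.08 (limma adjusted p = 0.00843). Both sets of 4 lay apart. Rps12 differed by 0.34 and Rpl26, a protein at the exit tunnel that also binds p53 mRNA, by 0.32. The other 6, Rps4x, Rpl19, Rpl32l, Rps15, Rpl23a and Rpl9, differed by 0.22 to 0.27. In all, 22 members (37.3%) had the 4 ATRA arrays above the 4 BMS641 arrays, which was so for 6.77% of all genes and 10.2% of those above the median level. With centred arrays the count was 7, and 4.09% over all genes.

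Of the 4 lower members, Rps27l had the smallest adjusted p. Rps27l is a copy of Rps27 that p53 induces, and it was at 9.97, 9.78, 9.65 and 9.66 with ATRA and at 10.35, 10.27, 10.27 and 10.09 with BMS641, without overlap, a difference of -0.48 ± 0.09 (limma adjusted p = 0.00276). The vehicle arrays were at 9.69 and 10.50, so vehicle 1 lay among the ATRA arrays and vehicle 2 above all BMS641 arrays. Rpl12 differed by -0.58 ± 0.19 (limma adjusted p = 0.0435) and Rpl30 by -0.49 ± 0.15 (adjusted p = 0.0399), both through 24 and 48 h. Rpl39l, the testis-enriched copy of Rpl39, differed by -0.38 ± 0.11 (limma adjusted p = 0.0303) at a low level, 4.89, 4.15, 4.69 and 4.55 with ATRA against 5.07, 4.98, 4.96 and 4.77. Rpl14 and Rps27l were the 2 members (3.39%, all genes 12.7%) with the 4 ATRA arrays below the 4 BMS641 arrays.

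These calls depended on the arrays used. With arrays centred on their medians, which moved the median over all genes from -0.04 to -0.14, 3 members were called higher and 6 lower and the member median was -0.0007. Without the 6 h arrays 7 members were called, without the 24 h arrays 2 and without the 48 h arrays 2. In the fit to all 18 arrays with the array set as a block, limma called 0 members (0 at an unadjusted p under 0.05), and 3 higher and 1 lower of all genes. Rps19 (-0.08), Rpl26 (-0.03) and Rps27l (0.33) changed sign, Rps28 (0.01), Rpl32l (0.01) and Rpl9 (0.03) were near 0, and Rpl30 (-0.44), Rpl39l (-0.38), Rpl12 (-0.26), Rps12 (0.25) and Rpl19 (0.23) were further from 0. Over all members most block estimates lay above 0, each with a 95% interval that held 0.

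**Figure D4:**
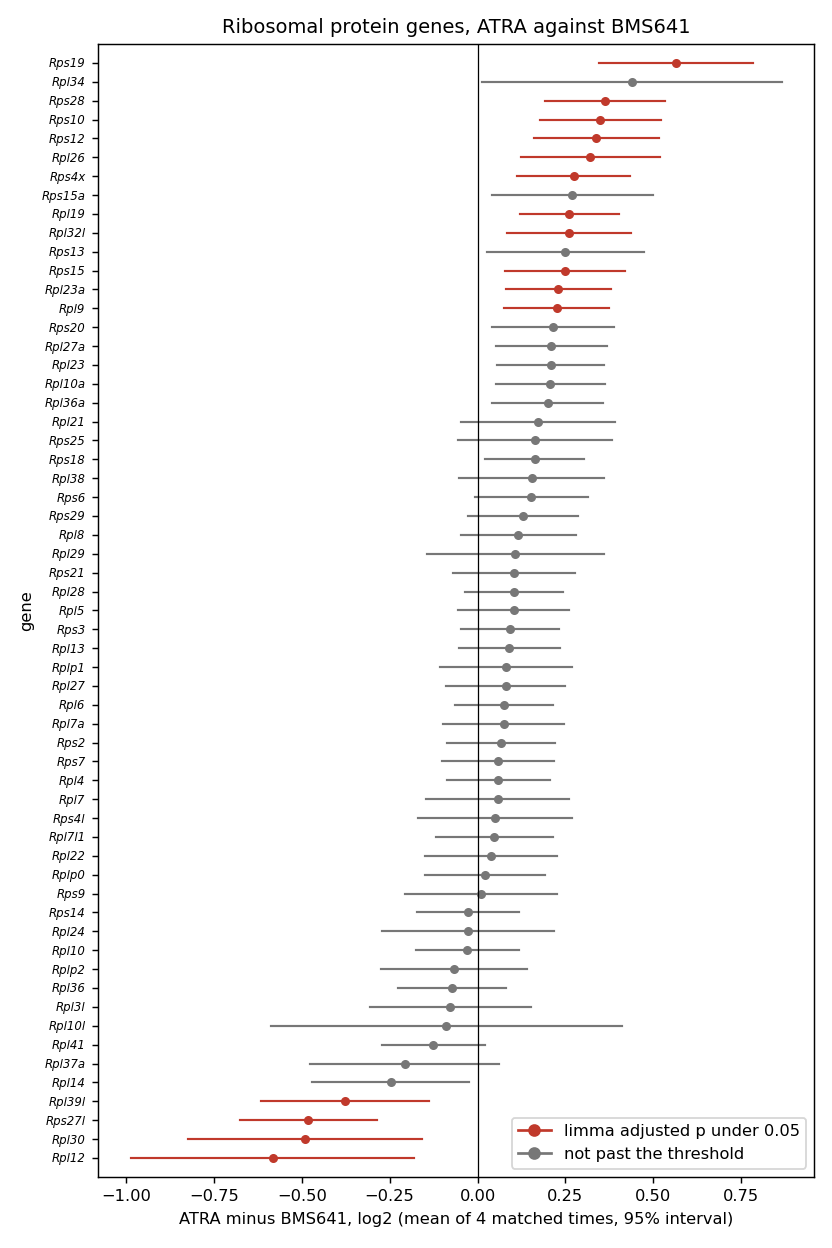
ATRA minus BMS641 on the log2 scale (horizontal axis) for each of the 59 genes (vertical axis, ordered by the difference), the mean over 4 matched times with its 95% interval from limma; red marks an adjusted p under 0.05. The 11 red genes above 0 run from Rpl9 (0.22) to Rps19 (0.56) and the 4 below 0 from Rpl39l (-0.38) to Rpl12 (-0.58).

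BMS753 and BMS641, receptor-specific agonists at the same dose, were not told apart by any member: limma called none (all genes 0%), and none had an unadjusted p under 0.05 (all genes 3.89%). Of the 59 intervals 57 stayed within 1.5-fold either way, the widest reaching from -0.51 (Rpl12) to 0.72 (Rpl34), so larger differences are bounded for most members but not for Rpl34 and Rpl10l. Member medians were -0.04, 0.06, 0.02 and -0.0021 at 2, 6, 24 and 48 h, and 0 members had their 4 BMS753 arrays wholly above or below those of BMS641 (all genes 1.12% and 1.71%).

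BMS961 was used at a lower dose than BMS641, so the compounds and the doses cannot be told apart. Member medians of BMS961 minus BMS641 were 0.16, 0.13, 0.15 and 0.02 at 2, 6, 24 and 48 h, and 54, 47, 51 and 31 of 59 members were higher. limma called no member over the 4 times (all genes 0.271% higher and 0.191% lower), with 14 at an unadjusted p under 0.05 (23.7%, all genes 10.9%), the highest being Rps19 (0.36 ± 0.10, adjusted p = 0.152) and Rps4l (0.32 ± 0.10, adjusted p = 0.218). All 4 BMS961 arrays were above all 4 BMS641 arrays in 18 members (30.5%, all genes 3.11%), Rps10, Rps12, Rps19, Rps28 and Rps4x among them, and below in 0 (all genes 3.6%). With centred arrays 3 of these 18 were above, Rps14, Rps19 and Rps28, and no other member (all genes 1.86%).

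No member was called for a change with time common to the 4 retinoids. Such an average does not bound a change within 1 retinoid, which was not tested alone. Late against early arrays, over the 4 retinoids, no member was called by limma (all genes 5.53% higher and 3.21% lower), 2 had an unadjusted p under 0.05 (3.39%, all genes 26.5%), and every 95% interval was within 1.5-fold. The largest estimates were Rpl12 (-0.26), Rpl30 (-0.22) and Rpl37a (-0.18) downward and Rpl22 (0.15), Rps28 (0.11) and Rps19 (0.11) upward. Whether the change from early to late differed between ATRA and BMS641 was also tested, and limma called no member (all genes 0.176% and 0.125%), with 2 at an unadjusted p under 0.05 (all genes 12.6%). Rpl12 was at -0.91 (adjusted p = 0.207) and Rpl30 at -0.82 (adjusted p = 0.106).

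Of the 7 members named as copies by an ending in l or l1, 3 were called between ATRA and BMS641, Rps27l and Rpl39l lower and Rpl32l (0.26) higher. Rpl3l, the heart and skeletal muscle copy of Rpl3, stayed between 4.18 and 4.54 on all arrays. Rpl10l, a testis copy of the X-linked Rpl10, ranged from 6.84 to 8.16, both extremes on BMS753 arrays (2 and 24 h). Rps4x, on the X chromosome, was higher with ATRA than with BMS641 by 0.27 ± 0.07 (limma adjusted p = 0.0214), whereas its autosomal copy Rps4l differed by 0.05 (adjusted p = 0.786). With the block Rps4x was at 0.09 and Rps4l at 0.41, neither called. Rpl22 ranged from 9.95 to 10.48, Rpl36a from 12.08 to 12.53, Rpl7 from 11.83 to 12.38 and Rpl7l1 from 10.59 to 10.97, and limma called none of these in any comparison. Near-identical copies and pseudogenes can share probes, so signal may be split or pooled among them.

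None of the stalk genes was called. Rplp0, the stalk's scaffold, differed between ATRA and BMS641 by 0.02, Rplp1 by 0.08 and Rplp2 by -0.07, and late ATRA against vehicle by 0.08, 0.11 and -0.29 (limma). Rplp2 was at 6.18 and 6.10 with vehicle and at 5.99, 6.06, 5.93 and 5.78 with ATRA. Rpl5, which with Rpl11 binds Mdm2 when ribosome assembly fails, ranged from 12.35 to 12.67 over the 18 arrays, highest on the vehicle arrays. Rps6, the substrate of S6 kinases, ranged from 12.83 to 13.16, and its 4 ATRA arrays (12.98 to 13.16) were above its BMS641 arrays (12.85 to 12.92) without a call (0.15, adjusted p = 0.173).

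By subunit, the ATRA and BMS641 difference had a median of 0.16 over the 21 members of the 40S subunit, 6 called higher and 1 lower. Over the 38 of the 60S subunit it was 0.08, with 5 called higher and 3 lower. As given above, none of these calls was kept under the block. The vehicle arrays differed in the same order. Vehicle 1 minus vehicle 2 had a median of 0.09 over the 40S members, 16 higher and 5 lower. Over the 60S members it was 0.02, 21 higher and 17 lower. The share of this vehicle difference in the subunit medians was not tested. Late BMS641 against vehicle gave medians of -0.26 and -0.15. No test of the difference between subunits was made. Members also differed in how they were measured. The 38 members with several single-symbol probe sets (up to 14, for Rps12) held 8 of the 11 higher and 0 of the 4 lower calls, and the 21 with a single probe set held 3 and 4. Rpl12, Rpl30, Rps27l, Rpl39l and Rps19 each rest on 1 probe set. In 28 of the 38 all probe sets had the same sign for ATRA minus BMS641: the 14 of Rps12 ran from 0.24 to 0.45, and the 7 of Rps28 from 0.26 to 0.51. For 5 of the members some probe sets held identical values, and 199 of the 211 probe sets were distinct within their gene.

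Other genes of ribosome production were taken from lists of textbook genes. Ribosome assembly factors (51 of 52 measured) were lower with ATRA late than with vehicle by a median of -0.56. Of them 14 were called lower (all genes 1.4%) and 0 higher (all genes 3.31%). They were lower than with BMS641 by a median of -0.44, 30 called lower (all genes 11.4%) and 0 higher (all genes 8.09%). The early direction of the assembly factors depended on the vehicle array. At 2 and 6 h of ATRA their medians were 0.31 and 0.19 against vehicle 1, but -0.20 and -0.29 against vehicle 2. At 24 and 48 h they were -0.21 and -0.35 against vehicle 1, and -0.65 and -0.85 against vehicle 2. Rrp12, needed for export of pre-ribosomes, was at 8.64 and 9.39 with vehicle and at 9.32, 9.02, 8.25 and 7.76 with ATRA, -1.01 ± 0.20 late (limma adjusted p = 0.0187). Bop1, a 60S processing factor, was lower with ATRA than with BMS641 by -1.06 ± 0.18 (limma adjusted p = 0.00161). Vehicle 1 was below vehicle 2 for both (Bop1 8.47 and 9.70), and blocking on the array set gave a late Rrp12 change of -0.63 (limma adjusted p = 0.102) and a Bop1 difference from BMS641 of 0.17 (adjusted p = 0.863), neither called.

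The late count of assembly factors was 34 without vehicle 1, and 0 without vehicle 2 or with the array set as a block; against BMS641 it was 8 without 24 h, 16 without 48 h and 0 with the block. RNA polymerase I and its factors (13 of 16 measured) had 2 called lower late with ATRA (all genes 1.4%), Taf1d (-1.24) and Rrn3 (-0.79). They had 8 lower than with BMS641 (all genes 11.4%). Those counts were 6 without vehicle 1, 0 without vehicle 2 and 0 with the block, and against BMS641 4 without 6 h, 2 without 24 h, 4 without 48 h and 0 with the block. Mitochondrial ribosomal proteins, 74 genes that build a separate ribosome, had 0 called higher with ATRA, late or against BMS641 (all genes 3.31% and 8.09%). They had 3 called lower late with ATRA (all genes 1.4%) and 32 lower than with BMS641 (all genes 11.4%). These were 37 without vehicle 1, 0 without vehicle 2 and 0 with the block, and against BMS641 20 without 6 h, 12 without 24 h, 19 without 48 h and 0 with the block.

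**Figure D5:**
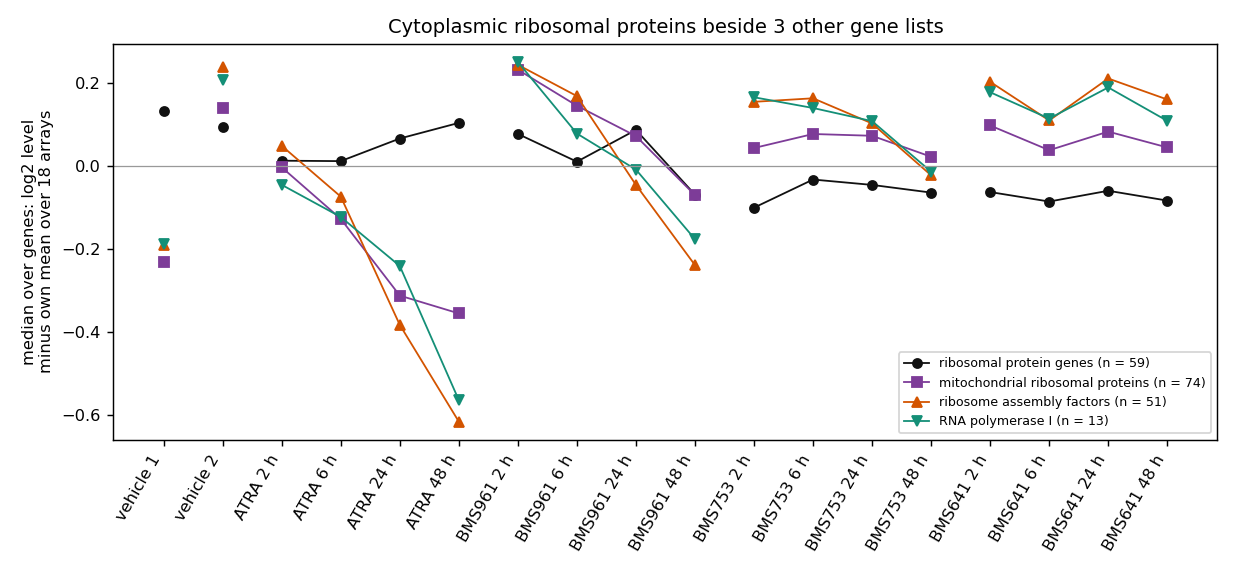
Median over the genes of each list of the log2 level minus the gene's own mean over the 18 arrays (vertical axis), by array (horizontal axis), for the 59 cytoplasmic ribosomal proteins (black circles), 74 mitochondrial ribosomal proteins, 51 assembly factors and 13 RNA polymerase I genes; lines join the times of 1 retinoid. At 48 h of ATRA the assembly factors are lowest while the ribosomal protein genes are at 0.10, and on vehicle 1 the 3 other lists are below 0 while the ribosomal protein genes are at 0.13.

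Of growth regulators (21 of 22 measured), Mycn (-2.47 ± 0.55, limma adjusted p = 0.00748), Myc (-1.40 ± 0.46, adjusted p = 0.0472), Rheb (-0.58) and Max (-0.26) were lower with ATRA than with BMS641 (all genes 11.4%). Late against vehicle 0 were called (all genes 3.31% higher and 1.4% lower), with 4 at an unadjusted p under 0.05 (all genes 19.8%). With the array set as a block none of Mycn (-1.09), Myc (0.04), Rheb (-0.25) and Max (-0.21) was called against BMS641. Myc was at 7.94 and 9.38 with vehicle and at 9.98, 8.57, 6.38 and 7.59 with ATRA at 2, 6, 24 and 48 h. With BMS641 it was at 9.36, 9.31, 9.66 and 9.79, so Myc was higher with ATRA at 2 h. Mycn was at 7.01, 7.36, 6.56 and 9.71 with ATRA and at 10.46, 10.33, 10.09 and 9.63 with BMS641. At 48 h Mycn was thus not lower with ATRA. Further subunit genes outside the symbol pattern differed in both directions between ATRA and BMS641: Fau by -0.32 ± 0.07 (limma adjusted p = 0.00615), Rps3a1 by 0.29 ± 0.08 (adjusted p = 0.0263) and Rpsa by 0.04, not called; with the block Fau was at -0.25 and Rps3a1 at 0.11, neither called. Between ATRA and BMS641 without the block limma called 8.09% of all genes higher and 11.4% lower. In that comparison elongation factors (7 of 8 measured) had 0 called higher and 2 lower (Eef1d -0.54, Eef1e1 -0.42). Initiation factors (24 of 29) had 2 higher, near the share of all genes, and 6 lower, led by Eif3m (-0.42) and Eif2b1 (-0.38). With the array set as a block none of these was called: Eef1d (0.10), Eef1e1 (0.07) and Eif2b1 (0.23) turned sign and Eif3m was at -0.11. Among other genes whose mRNAs start with the oligopyrimidine tract (17 of 21) 3 were lower and 0 higher, Gas5, a noncoding host of small nucleolar RNAs, by -0.83, Eef1d and Eif4b (-0.35). Gas5 was at 9.99 on vehicle 1 and 11.04 on vehicle 2, and with the block it was at 0.21 and Eif4b at 0.13, not called. Over all these lists 88 genes were called between ATRA and BMS641, of which 0 were with the block and 52 turned sign. Of all 19938 genes the block left 3 called higher and 1 lower.

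Rps27l is a p53 target, and 7 of 10 other genes of the p53 response were measured. Early with ATRA, Phlda3 (-1.16 ± 0.15, limma adjusted p = 0.0026), Ccng1 (-0.85 ± 0.13, adjusted p = 0.00964) and Mdm2 (-0.61 ± 0.13, adjusted p = 0.044) fell against vehicle (all genes 0.396%). Late 0 of the 7 were called (all genes 3.31% higher and 1.4% lower), with 1 at an unadjusted p under 0.05 (all genes 19.8%). Ccng1 was at 11.27 and 11.11 with vehicle and at 10.56, 10.12, 11.69 and 11.47 with ATRA, so its early arrays lay below and its late arrays above both. The ATRA arrays of Rps27l were lowest at 24 and 48 h (9.65 and 9.66), and its early ATRA change was -0.22 (limma adjusted p = 0.852). Its early ATRA arrays (9.97 and 9.78) lay above vehicle 1 (9.69) and below vehicle 2 (10.50). The direction of this early change thus depended on the vehicle array.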

How the data were processed

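Each of the 18 arrays has a deposited log2 value per probe set. The submitters' processing notes name Affymetrix Expression Console 1.1 and RMA. Neither detection calls nor the arrays that entered 1 normalization are stated in the sources used here. Levels lay between 2.05 and 14.36 and were used as deposited, with no filter. Of 35556 probe sets, the platform annotation gave 21789 1 symbol, 1621 several and 12146 none. RMA compresses changes of bright and dim probes, and few arrays limit the precision. The brightest probe set stood for a gene.

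Linear models in limma 3.58.1 under R 4.3.3 took the 18 arrays together, with vehicle, each retinoid early (2 and 6 h) and late (24 and 48 h) as 9 group means and common time steps (7 residual degrees of freedom, prior 4.55), and to the 16 retinoid arrays with retinoid and time (9, prior 4.41). With 1 array for each retinoid and time, the spread comes from the vehicle pair and from departures from common time effects. Intervals are 95%. Both fits were also run on simulated data with independent noise and no array set, so that run does not bear on an effect of the set. Python 3.11.15, pandas 2.3.3, numpy 2.4.6 and matplotlib 3.10.9 made tables and figures. In each comparison the members named are the 3 highest, the 3 lowest and all called where 10 or fewer were; copies, stalk genes, Rpl5 and Rps6 always; list genes by at most 4 largest calls. Members and the 9 lists were chosen with earlier results of these data known, and support nothing on their own. The array set as a block between retinoids, the non-overlap counts, the tests of early-to-late change and the settings of the lists were added after seeing the data.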

Additional observations from a re-analysis of the deposited data

Results flagged for a closer look

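The change from early (2 and 6 h) to late (24 and 48 h) differed between ATRA and BMS641 for 4 genes of the lists, by limma's test of that difference. It was called for 0 of the 59 ribosomal protein genes (all genes 0.176% higher and 0.125% lower). Phlda3 differed by 1.62 (adjusted p = 0.0207), Ccng1 by 1.40 (adjusted p = 0.0207) and Mdm2 by 1.07 (adjusted p = 0.0376), all of the p53 response and all rising from early to late with ATRA relative to BMS641. Phlda3 was at 6.85, 6.57, 7.95 and 7.60 with ATRA at 2, 6, 24 and 48 h and at 8.24, 8.38, 7.96 and 7.53 with BMS641. Nol6, an assembly factor, differed by -0.99 (adjusted p = 0.0376): it was at 10.04, 9.99, 9.39 and 8.92 with ATRA and at 9.67, 9.64, 9.86 and 9.71 with BMS641. With centred arrays Mdm2 was at 0.96 (adjusted p = 0.0687), and with quantile normalization Nol6 had an adjusted p of 0.0503. The array set cancels in this test only as far as its effect is the same early and late, which was not tested.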

How the results depend on the processing

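No paired analysis was possible because only the vehicle arrays carry replicate numbers; retinoids were compared with time as a block. Late with ATRA, 2 members were called against vehicle, 6 without vehicle replicate 1 (1 higher, 5 lower), 1 without vehicle replicate 2 and 1 with the array set as a block. Without vehicle replicate 2 some members were also called for late BMS753, late BMS641 and the early arrays of all BMS agents. Without vehicle replicate 1 none was called in these comparisons. ATRA against BMS641, 15 called, had 9 with centred arrays, 7 without the 6 h arrays, 2 without the 24 h, 2 without the 48 h and 0 with the set block, under which Rps19 (-0.0843), Rpl26 (-0.0263) and Rps27l (0.33) turned. Of the 15, 12 were also called with quantile normalization, 7 with centred arrays, 14 with probe sets averaged per gene and 14 with trend and robust eBayes.

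Lists late with ATRA gave 34 assembly factors without vehicle replicate 1 and 0 without replicate 2 or with the block, 6, 0 and 0 RNA polymerase I genes, and 37, 0 and 0 mitochondrial ribosomal proteins (6 with quantile normalization, 5 among genes above the median level). Against BMS641 the assembly factors were 8 without 24 h and 16 without 48 h, RNA polymerase I genes 4, 2 and 4 without 6, 24 and 48 h, mitochondrial ribosomal proteins 20, 12 and 19, and all 0 with the block.

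Member medians over the times, ATRA against vehicle, went from -0.08 to -0.18 with centred arrays; against BMS641, ATRA went from 0.109 to 0.0278, BMS961 from 0.136 to 0.0869 (quantile) and 0.0849 (centred), and BMS753 from 0.0070 to -0.0023 (quantile). The vehicle arrays' difference turned from 0.04 to -0.14 with centred arrays. Members with all ATRA arrays below vehicle numbered 11, and 30 centred, 23 without vehicle replicate 1 and 24 without replicate 2; for BMS961 9, and 17, 20 and 32. Members above all BMS641 arrays went from 22 to 7 (ATRA) and from 18 to 3 (BMS961) with centred arrays. The counts for BMS753 and BMS641 below vehicle stayed within 1.5 times. With 1 array for each retinoid and time, single times have no replicate check, and no detection call separates dim members such as Rpl3l and Rpl39l from background.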
